A study of Mus musculus with 8 samples.

Results

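The B cell antigen receptor (BCR) complex and its coreceptors were followed across 8 bulk RNA-seq libraries of splenic B cells from diseased transgenic mice. The set held 9 genes, Cd79a, Cd79b, Cr2, Cd81, Cd22, Cd72, Fcgr2b, Cd5 and Ms4a1, chosen by symbol from the 24902 symbols of the counts matrix. All 9 had a value in every library and all 9 were among the 13173 genes that passed the expression filter and were tested. They made up between 0.198% and 0.803% of the counts of a library. Levels are given as CPM, the count of a gene scaled by the depth of its library, with edgeR's TMM factors, to a common total.

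The libraries came from 4 mice with the Eµ-PRMT5 transgene, 3 Eµ-PRMT5/TCL1 mice and 1 Eµ-TCL1 mouse, all labelled as strain C57BL/6N, and were taken when a mouse met early removal criteria (ERC). Eµ-PRMT5 mice carry human PRMT5, an arginine methyltransferase, behind a VH promoter and the IgH-µ enhancer, which direct the transgene to B cells. Eµ-TCL1 mice carry the human TCL1 oncogene under the same kind of B cell control and are a standard model of chronic lymphocytic leukemia (CLL). Eµ-PRMT5/TCL1 mice, the double transgenic mice, were bred from both lines, so every library came from an animal with at least 1 oncogenic transgene and WT mice were not analysed here. Ages are not stated in the labels, and the label of Eµ-PRMT5 mouse 2 carries the ID of a transgenic founder. B cells were enriched by negative selection with a pan-B kit, not sorted as tumor cells. As bulk samples, they cannot tell fewer B cells apart from less RNA per B cell.

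The BCR signals through the CD79A and CD79B chains, which hold the membrane immunoglobulin at the surface and carry immunoreceptor tyrosine-based activation motifs (ITAMs) in their tails. A coreceptor complex that includes CD21 (Cr2), which binds complement fragments, and the tetraspanin CD81 lowers the amount of antigen needed. CD22, CD72 and FcγRIIB hold inhibitory motifs (ITIMs) that recruit phosphatases, and CD5, a marker of B1 cells and of CLL, also dampens the signal. CD20, the product of Ms4a1, is a B cell surface protein associated with the receptor and the target of therapeutic antibodies.

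The coding bases of these tyrosine motifs are shown because the activating and inhibitory roles of the members are known to run through them. They were read from GENCODE vM21 transcripts on GRCm38, 5′ to 3′ on the coding strand. Capitals mark the codons of each tyrosine and of other residues defining the motif, which in an ITIM stand on both sides of the tyrosine. The first codon of each ITAM, for the aspartate or glutamate that the pattern also required, is in lower case. The ITAMs of Cd79a (chr7:24901287-24901469, plus strand) and Cd79b (chr11:106311867-106312021, minus strand) each span 2 exons:
Cd79a ITAM: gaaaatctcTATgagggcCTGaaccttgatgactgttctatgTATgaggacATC
Cd79b ITAM: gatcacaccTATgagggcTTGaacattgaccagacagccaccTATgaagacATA
The inhibitory members were represented by the Fcgr2b motif (chr1:170961071-170961088, minus strand), the first Cd72 motif (chr4:43454498-43454515, minus strand) and the last 2 motifs of Cd22 (chr7:30866600-30866617 and chr7:30866540-30866557, minus strand):
Fcgr2b ITIM: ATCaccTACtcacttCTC
Cd72 ITIM: ATCacgTATgcagacCTG
Cd22 ITIM, next to last: ATCcatTACtcagagCTG
Cd22 ITIM, last: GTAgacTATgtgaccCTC
The ITAM pattern was a rare one, found in 0.376% of 21562 protein-coding genes, and Cd79a and Cd79b were the only 2 members with a match. The ITIM pattern is short and was found in 49.1% of those genes, and in 7 of the 9 members, Cd79a, Cr2 and Cd81 among them, so a match of that kind does not separate inhibitory members from the others.

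Library totals ranged from 3356297 to 10252426 counts. Of the B cell marker list, all 10 genes were measured in every library, with a summed level from 11350 to 27626 CPM. Cd74 alone, at 9019 to 20334 CPM, made up most of that sum in every library. The T cell receptor gene Cd3e ranged from 6.43 to 55.2 CPM. Eµ-PRMT5 mouse 4 stood apart as the library with the lowest B cell sum, the highest erythroid sum (694 CPM) and a neutrophil sum of 5545 CPM, against 9431 CPM in Eµ-PRMT5/TCL1 mouse 1 and 506 CPM in Eµ-PRMT5 mouse 3. Because 1 Eµ-TCL1 library was at hand, a comparison with it asks only whether that mouse lay outside the spread of the replicated groups. Mouse Prmt5, the ortholog of the transgene, was at 149 ± 72.3 CPM in Eµ-PRMT5 mice (SD, n = 4), 117 ± 8.19 in double transgenic mice (n = 3) and 79.5 in the Eµ-TCL1 mouse, and the sources used here do not say where reads of the human transgene were counted.

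The subunits Cd79a and Cd79b were the most abundant members in all genotypes. Per kilobase of annotated exon, the geometric mean over 8 libraries was 863 CPM for Cd79a and 658 CPM for Cd79b, followed by 199 for Cd81, 106 for Cd72, 92.5 for Ms4a1, 84.7 for Fcgr2b and 52.6 for Cd22. Cd5 and Cr2 were far lower, at 7.17 and 1.20 CPM per kilobase. Cd79a exceeded Cd79b in 7 of 8 libraries, and Cd79b exceeded Cd81 in all 8, and Cd81 exceeded Cd72 in 7 of 8. Neighbours in the middle of the order were not separated: Cd72 exceeded Ms4a1 in 5 of 8 libraries, Ms4a1 exceeded Fcgr2b in 4 of 8, and Fcgr2b exceeded Cd22 in 6 of 8. Cd22 exceeded Cd5, and Cd5 exceeded Cr2, in all 8. The order was the same for all 9 members when the longest coding transcript was used as the length, a choice made after seeing the data.

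**Figure D1:**
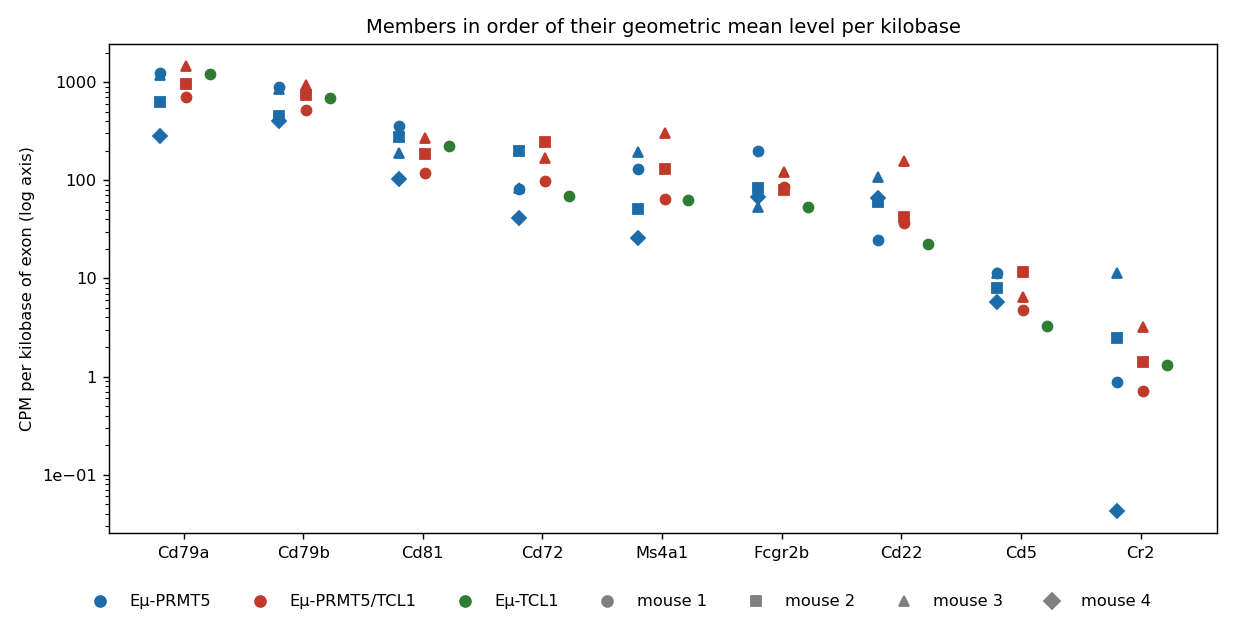
Level of each member in CPM per kilobase of exon on a log axis, ordered by the geometric mean over 8 mice; color gives the genotype and marker shape the mouse number. Cd79a and Cd79b lead at 863 and 658 CPM per kilobase, the members from Cd72 to Cd22 overlap, and Cr2 spans the widest range.

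Cd79a, on chromosome 7 of GRCm38 from 24897381 to 24902197, measured 1792, 924, 1714 and 411 CPM in Eµ-PRMT5 mice 1 to 4. It measured 1023, 1409.9 and 2115 CPM in the double transgenic mice and 1762 CPM in the single Eµ-TCL1 mouse. The genotypes overlapped, and the lowest value was that of Eµ-PRMT5 mouse 4. Cd79b, on chromosome 11 from 106311341 to 106314762, measured 1287, 639, 1231 and 572 CPM in Eµ-PRMT5 mice. In the double transgenic mice it measured 741, 1067 and 1352 CPM, and the Eµ-TCL1 mouse had 997 CPM. It had the narrowest range of the 9, with a highest value 2.36 times the lowest, against 5.14 times for Cd79a. For double transgenic over Eµ-PRMT5 mice, the log2 fold change was 0.32 for Cd79a (standard error 0.52) and 0.18 for Cd79b (0.43), with 95% intervals from -0.80 to 1.45 and from -0.75 to 1.11.

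Both subunits are needed in equal amounts for a surface receptor, and their ratio within a library does not depend on scaling. Cd79a was 1.39, 1.45 and 1.39 times Cd79b in Eµ-PRMT5 mice 1 to 3, and 1.38, 1.32 and 1.56 times in the double transgenic mice. The ratio was 0.718 in Eµ-PRMT5 mouse 4, the only mouse with less Cd79a than Cd79b, and 1.77 in the Eµ-TCL1 mouse, the highest of 8. Over the 8 mice the log2 levels of both subunits had a Pearson r of 0.92 (Spearman 0.93), and 0.95 without Eµ-PRMT5 mouse 4. Such values were not particular to this pair. Among 9924 genes compared, Cd79b ranked 27 in likeness to Cd79a, and 40 genes had an r above 0.9 to Cd79a.

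**Figure D2:**
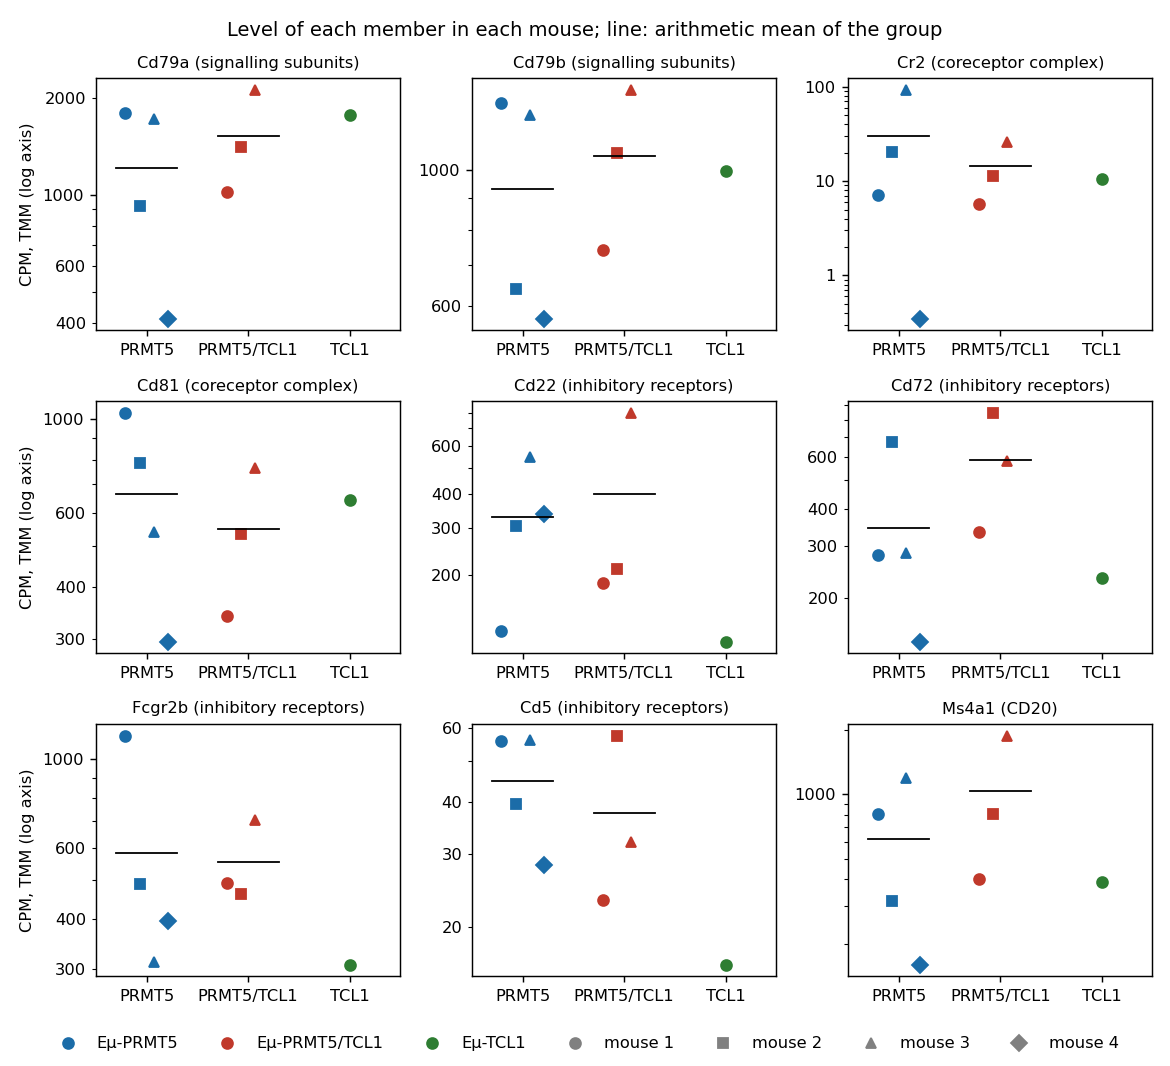
CPM of each of the 9 members in each mouse on a log axis, by genotype, with a line at the arithmetic mean of each replicated group and marker shape for the mouse number. The 2 replicated groups overlap in every panel, Eµ-PRMT5 mouse 4 is lowest for 6 members, and the Eµ-TCL1 mouse is lowest for Cd22, Fcgr2b and Cd5.

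Of the coreceptor complex, Cr2 varied most of all members. Cr2 encodes CD21 and lies on chromosome 1 from 195136811 to 195176716, with the related receptor CD35 encoded by the same gene in mice. It measured 7.10, 20.3, 92.6 and 0.346 CPM in Eµ-PRMT5 mice 1 to 4, from 35, 128, 406 and 3 counts. The double transgenic mice had 5.74, 11.3 and 25.97 CPM and the Eµ-TCL1 mouse 10.5 CPM, all inside the range of the Eµ-PRMT5 mice. Eµ-PRMT5 mouse 3 was 268 times mouse 4, with an exact 95% counting interval from 90.9 to 1303. The SD of log2 Cr2 among Eµ-PRMT5 mice was 2.98, above that of 99.95% of genes tested, and 1.06 among double transgenic mice.

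The log2 fold change of Cr2 of double transgenic over Eµ-PRMT5 mice was -1.06 (standard error 1.13, 95% interval -3.51 to 1.40), and it became 0.64 without Eµ-PRMT5 mouse 3. That mouse also had the highest sum of the follicular dendritic and stromal markers, 47.2 CPM against 10.4 to 36.3 CPM in the other 7. Follicular dendritic cells also carry CD21, but only 2 of 8 genes of that list, Enpp2 and Fcamr, had a value in all libraries. Their defining gene Cxcl13 had a value in 1 library only, 3 counts in Eµ-PRMT5/TCL1 mouse 2. It had no value in Eµ-PRMT5 mouse 3, and the meaning of a missing value is not stated. Madcam1 and Clu of that list had 37 and 16 counts in Eµ-PRMT5 mouse 3, and 121 and 17 in mouse 4. The part of follicular dendritic cells in the Cr2 values was not tested. Relative to Cd79a in the same library, Cr2 still ranged from 0.000841 in Eµ-PRMT5 mouse 4 to 0.0540 in mouse 3, so its spread was wider than that of the subunit.

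Cd81, a tetraspanin on chromosome 7 from 143052739 to 143067934, measured 1035, 788, 541 and 296 CPM in Eµ-PRMT5 mice. It measured 341, 535 and 767 CPM in double transgenic mice and 643 CPM in the single Eµ-TCL1 mouse. The groups overlapped, with a log2 fold change of -0.28 of double transgenic over Eµ-PRMT5 mice (standard error 0.47). Relative to Cd79a, Cd81 was 0.358 ± 0.0232 in double transgenic mice (SD, n = 3), 0.617 ± 0.230 in Eµ-PRMT5 mice (n = 4) and 0.365 in the Eµ-TCL1 mouse. The 3 double transgenic mice were alike in this ratio, and Eµ-PRMT5 mouse 3 at 0.316 lay below them while the other three lay above.

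The phosphatase Ptprc (CD45) measured from 427 to 1438 CPM in Eµ-PRMT5 mice. In the double transgenic mice it measured from 454 to 681 CPM, and the Eµ-TCL1 mouse had 484 CPM.

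Among inhibitory receptors, Cd22, a sialic acid binding lectin on chromosome 7 from 30865402 to 30880342, measured 124, 305, 549 and 336 CPM in Eµ-PRMT5 mice. It measured 186, 210.5 and 799.2 CPM in double transgenic mice and 113 CPM in the single Eµ-TCL1 mouse. The Eµ-TCL1 mouse was the lowest of 8, close to Eµ-PRMT5 mouse 1. The Pearson r of Cd22 was -0.01 to Cd79a and 0.12 to Cd79b, the lowest of the members over 8 mice. Without Eµ-PRMT5 mouse 4 these were 0.21 and 0.26, and Cd72 was then lowest, at -0.31 and -0.21. Eµ-PRMT5 mouse 4, low for most members, kept Cd22 at 336 CPM, above the values of 2 other mice of its group and of 2 double transgenic mice.

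Cd72, a C-type lectin receptor on chromosome 4 from 43446462 to 43454628, measured 280.1, 672, 284 and 142 CPM in Eµ-PRMT5 mice. In the double transgenic mice it measured 333, 846 and 579 CPM, and the Eµ-TCL1 mouse had 234 CPM. All 3 double transgenic mice lay above 3 of the 4 Eµ-PRMT5 mice, and only Eµ-PRMT5 mouse 2 overlapped them. Of the members, Cd72 had the largest positive log2 fold change of double transgenic over Eµ-PRMT5 mice, 0.77 (standard error 0.51, unadjusted p = 0.156, edgeR's adjusted p = 0.999994). This estimate was 1.32 without Eµ-PRMT5 mouse 2 and 0.41 without Eµ-PRMT5/TCL1 mouse 2. Exons of Tesk1 on the opposite strand overlap 1423 bases of Cd72, and Tesk1 had between 1.89 and 3.64 CPM. Opposite-strand exons of other genes overlap Cd22 over 479 bases, Fcgr2b over 155 and Cd81 over 104, and whether counting used strand is not stated. The part of such overlaps in the counts was not tested.

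Fcgr2b, the inhibitory Fc receptor on chromosome 1 from 170958617 to 170976547, measured 1145, 487, 311 and 393 CPM in Eµ-PRMT5 mice. It measured 491, 462 and 705 CPM in double transgenic mice and 307 CPM in the single Eµ-TCL1 mouse. The last value was the lowest of 8, close to Eµ-PRMT5 mouse 3, and the highest was Eµ-PRMT5 mouse 1. Macrophages also express Fcgr2b. The sum of 8 of 13 macrophage markers was from 231 to 536 CPM in Eµ-PRMT5 mice, from 310 to 1173 CPM in double transgenic mice, with 260.4 CPM for the Eµ-TCL1 mouse, and its part in the Fcgr2b values was not tested. Of the 50-base stretches of the Fcgr2b transcript, 12.5% also occur in another gene, and 4.75% in the related activating receptor Fcgr3, which ranged from 11.4 to 222 CPM. Reads could be split between these genes, and how far was not tested.

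Cd5, a scavenger receptor family member on chromosome 19 from 10717116 to 10739002, measured 56.0, 39.4, 56.3 and 28.1 CPM in Eµ-PRMT5 mice. In the double transgenic mice it measured 23.3, 57.6 and 31.96 CPM, and the Eµ-TCL1 mouse had 16.2 CPM. The Eµ-TCL1 mouse lay below all others, and the 2 replicated groups overlapped. T cells also carry CD5. Of 17 T cell markers, 10 could be summed, and the sum was from 461 to 1264 CPM in Eµ-PRMT5 mice, from 754 to 1290.4 CPM in double transgenic mice, with 551 CPM for the Eµ-TCL1 mouse. The sum was highest in Eµ-PRMT5/TCL1 mouse 2, which also had the highest Cd5, and the Eµ-TCL1 mouse, with the lowest Cd5, had the next to lowest sum. Cd3e alone was lowest in the former, at 6.43 CPM, and next to highest in the latter, at 21.6 CPM. Cd3d was 2.43 CPM in each, rank 2 from the lowest in the former and 3 in the latter. Lck made up 667 CPM of the sum in the former and 121 CPM in the latter. The part of T cells in the Cd5 values was not tested.

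Ms4a1, on chromosome 19 from 11249675 to 11266241, measured 807, 316, 1194 and 159 CPM in Eµ-PRMT5 mice. It measured 402, 812 and 1879.7 CPM in double transgenic mice and 387 CPM in the single Eµ-TCL1 mouse. With a highest value 11.8 times the lowest, it was the second most variable member after Cr2. The log2 fold change of double transgenic over Eµ-PRMT5 mice was 0.74 (standard error 0.66) and -0.03 without Eµ-PRMT5/TCL1 mouse 3, so 1 library carried the difference. Ms4a1 followed Cd79b and Cd79a, with Pearson r of 0.92 and 0.86.

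**Figure D3:**
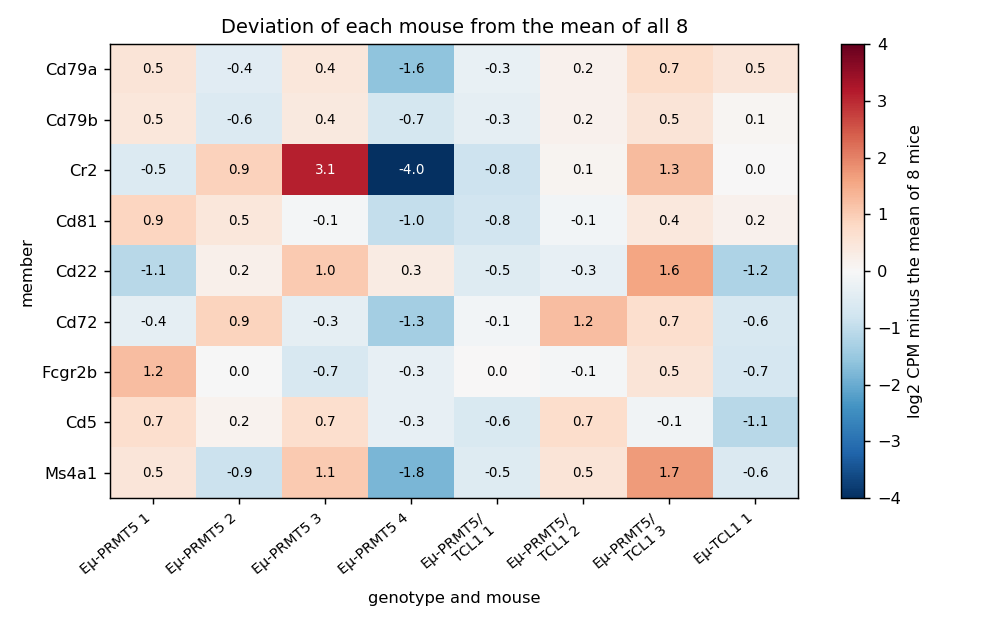
Heat map of log2 CPM (prior count 2) minus the mean of the 8 mice, with members in rows and mice in columns. Eµ-PRMT5 mouse 4 is below the mean for all members but Cd22, and the Cr2 row reaches 3.1 in Eµ-PRMT5 mouse 3 and -4.0 in mouse 4.

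The first comparison asked whether the second transgene goes with a different receptor profile. None of the 9 members was called between double transgenic and Eµ-PRMT5 mice. edgeR's quasi-likelihood test called 0% of 13173 genes at an adjusted p under 0.05, with 0.730 as the lowest adjusted p. It listed 286 genes (2.17%) and 0 members at an unadjusted p under 0.05, and DESeq2 called 3 genes higher and 1 lower, no member among them. The member estimates ran from -1.06 for Cr2 to 0.77 for Cd72, 5 above 0 and 4 below, with a median of 0.18 beside -0.09 for all genes tested. No member separated the groups, while 1.35% of genes were higher and 1.59% lower in all double transgenic mice. Every 95% interval of a member reached up to at least 0.66 and down to at least -0.34, so changes within those bounds were not excluded for any member. These bounds are not a detection limit. The standard errors ran from 0.42 for Cd5 to 1.13 for Cr2, and larger changes could also go uncalled with these mice.

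The same fit without Eµ-PRMT5 mouse 4 moved Cd79a from 0.32 to 0.04, Cd79b from 0.18 to 0.002 and Ms4a1 from 0.74 to 0.42 on the log2 scale. The median of the members went from 0.18 to 0.002, and 0 members and 0 genes were called. Eµ-PRMT5 mouse 4 was the lowest of 8 for 6 of 9 members (Cd79a, Cd79b, Cr2, Cd81, Cd72 and Ms4a1), beside 17.9% of all genes tested. In that library the B cell factor Ebf1 was also lowest, at 18.4 CPM against 179 to 1341 CPM elsewhere. Blk (200 CPM) and Cd74 (9019 CPM) were lowest of 8 as well, and Pou2af1 (118 CPM) ranked 3 from the lowest. Pax5, at 83.6 CPM, was above Eµ-PRMT5/TCL1 mouse 1, and Spib, at 459.6 CPM, was above 3 other mice. At the other end, Eµ-PRMT5/TCL1 mouse 3 was highest of 8 for 4 of 9 members (Cd79a, Cd79b, Cd22 and Ms4a1), beside 5.77% of genes, and had the highest B cell marker sum. That list itself holds Cd79a, Cd79b and Ms4a1, and the part of B cell content in these values was not tested.

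The members varied between mice of 1 genotype at least as much as most genes. The SD of log2 CPM was above the median of all genes for 7 of 9 members among Eµ-PRMT5 mice and for 8 of 9 among double transgenic mice. The median SD of the members was 0.90 and 0.66 in those groups, beside 0.66 and 0.36 for all genes tested. Cd5 was the least variable member among Eµ-PRMT5 mice, with an SD of 0.47.

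The remaining comparisons set the replicated groups against the Eµ-TCL1 mouse, which both share. For Eµ-PRMT5 mice, edgeR called 0% of genes at an adjusted p under 0.05 and 6.78% at an unadjusted p under 0.05, with 0 members in either. DESeq2 called 4 genes higher and 14 lower, none of them a member. The member with the smallest p was Cd5, with a log2 fold change of 1.47 (standard error 0.69, 95% interval -0.03 to 2.97, unadjusted p = 0.0545, adjusted p = 0.709 from edgeR). Without Eµ-PRMT5 mouse 4 it was 1.64, with an unadjusted p of 0.0269 and an adjusted p of 0.785 from edgeR. Cd22 was at 1.54 (0.95), Cr2 at 1.50 (1.81) and Fcgr2b at 0.93 (0.73), with standard errors in parentheses, while Cd79a was at -0.54 (0.73), Cd79b at -0.10 (0.62) and Cd81 at 0.05 (0.68).

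All 4 Eµ-PRMT5 mice lay above the Eµ-TCL1 mouse for Cd22, Fcgr2b and Cd5, that is 3 of 9 members (33.3%) beside 17.9% of genes tested, and 0 members lay wholly below it, beside 24.4% of genes. The 3 genes are inhibitory receptors. All 3 double transgenic mice lay above the Eµ-TCL1 mouse for these and for Cd72 and Ms4a1, 5 of 9 members (55.6%) beside 27.6% of genes, and 0 members lay below, beside 39% of genes. With a single mouse on one side, such separations are common among all genes.

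For double transgenic mice set against this mouse, edgeR called 0% of genes at an adjusted p under 0.05 and 6.09% at an unadjusted p under 0.05, again with 0 members, and DESeq2 called 9 genes higher and 7 lower, without a member. The estimates were 1.82 for Cd22 (standard error 0.99, unadjusted p = 0.0897, adjusted p = 0.778 from edgeR), 1.42 for Ms4a1 (1.10), 1.32 for Cd72 (0.84), 1.21 for Cd5 (0.69) and 0.85 for Fcgr2b (0.74). The subunits were near 0, at -0.22 for Cd79a (0.78) and 0.08 for Cd79b (0.65). The median over the members was 0.85 beside -0.07 for all genes tested, and 0.68 beside 0.04 in the comparison with Eµ-PRMT5 mice.

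**Figure D4:**
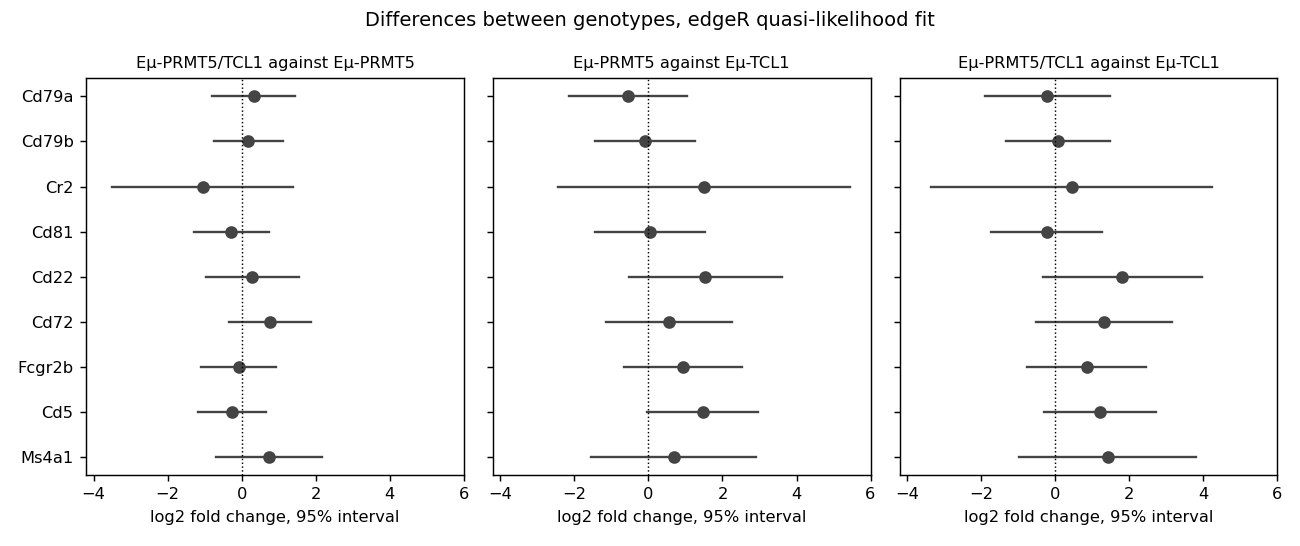
Log2 fold change of each member with its 95% interval from edgeR's quasi-likelihood fit, 1 panel for each comparison, with a dotted line at 0. All 27 intervals include 0. In each panel against the Eµ-TCL1 mouse 7 of 9 members lie on the positive side, the 4 inhibitory receptors, Cr2 and Ms4a1 among them.

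The Eµ-TCL1 mouse was the lowest of 8 for 3 members, beside 14.2% of genes tested. This count depended on scaling, since it was 1 member, Cd5, when library size alone was used. In that scaling the median log2 fold change of all genes against the Eµ-TCL1 mouse went from 0.04 to -0.21 for Eµ-PRMT5 mice and from -0.07 to -0.30 for double transgenic mice. Ratios within a library are free of this choice. Relative to Cd79a, Cd22 (0.0641), Cd72 (0.133), Fcgr2b (0.174) and Cd5 (0.00920) were all lowest in the Eµ-TCL1 mouse, as was Ms4a1 (0.219). These ratios share Cd79a as the divisor, which in that mouse was 1762 CPM, rank 6 from the lowest of 8. The share of all genes lowest there by such a ratio was not computed. The 7 other mice ranged from 0.0690 to 0.816 for Cd22, so the margin to Eµ-PRMT5 mouse 1 was small. Relative to Cd79b, only Cd5 was lowest in the Eµ-TCL1 mouse, at 0.0163 against 0.0236 to 0.0616 in the others, and Cd22 and Fcgr2b were next to lowest and Cd72 was above 2 other mice.

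The mean log2 level of the 4 inhibitory receptors minus that of the 2 subunits was -2.81, -1.62, -2.67 and -1.68 in Eµ-PRMT5 mice, -2.42, -2.22 and -2.40 in double transgenic mice and -3.63 in the Eµ-TCL1 mouse. The Eµ-TCL1 mouse lay lowest on this measure and the double transgenic mice fell inside the range of the Eµ-PRMT5 mice. The measure was built after the values were known and shares the Cd79a level with the ratios above. No share over all genes stands beside it, and it is given as a description.

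**Figure D5:**
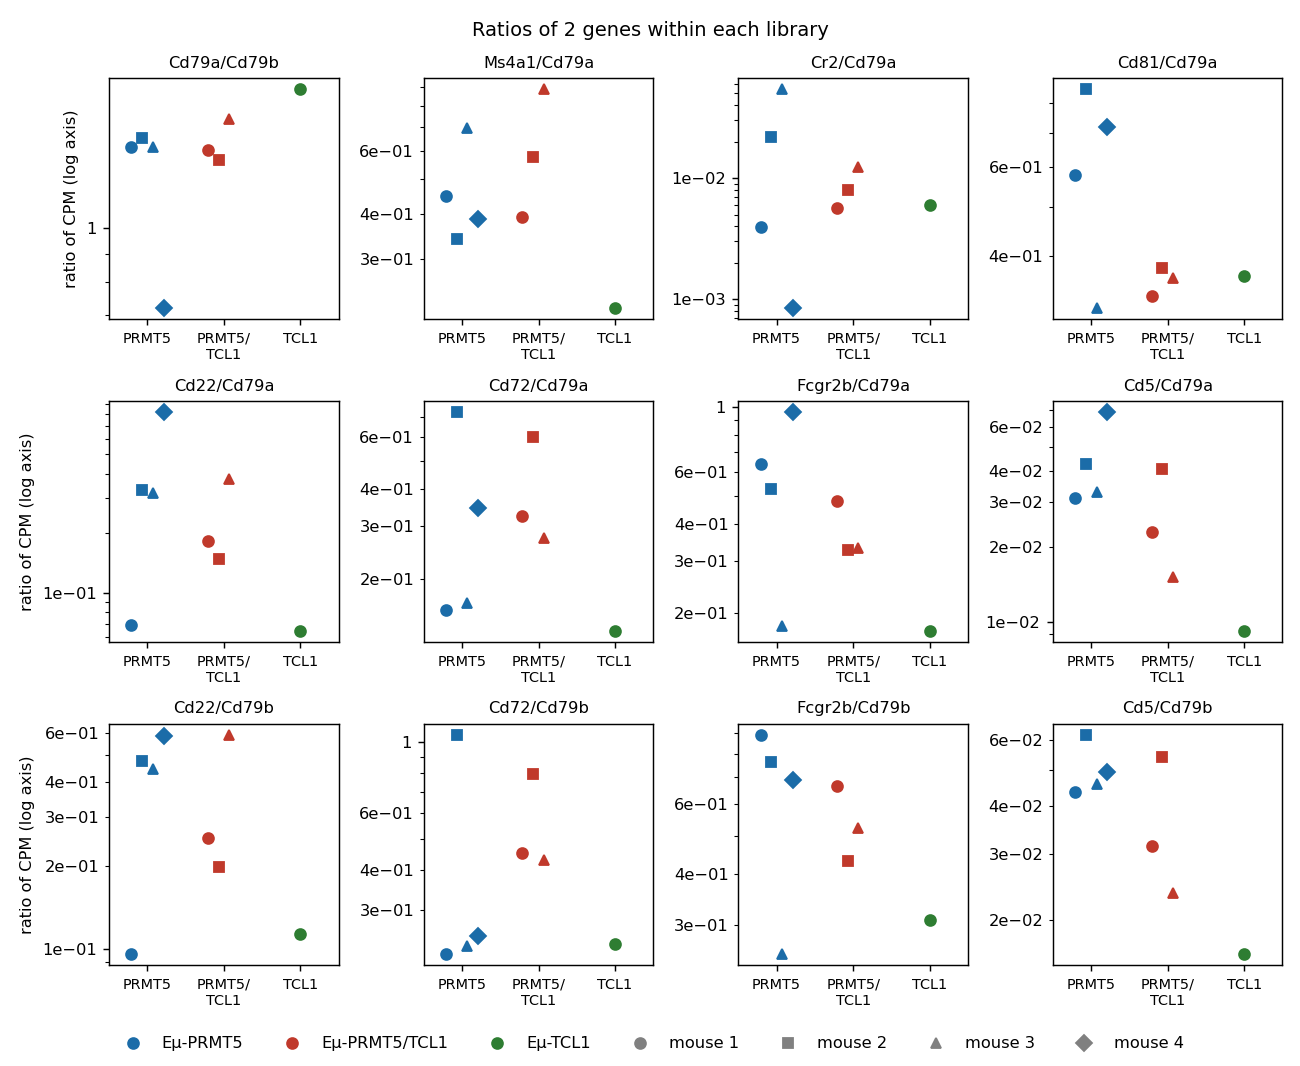
Ratio of the CPM of 2 genes within each library on log axes, by genotype, with marker shape for the mouse number. Eµ-PRMT5 mouse 4 has the one Cd79a to Cd79b ratio below 1 (0.718), and in the middle row all 4 inhibitory receptors relative to Cd79a are lowest in the Eµ-TCL1 mouse. Relative to Cd79b, in the lower row, only Cd5 is lowest there.

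Across the 36 pairs of members, Pearson r of log2 CPM over 8 libraries had a median of 0.39, with 12 pairs above 0.5 and 4 below 0. The points share genotype, isolation and depth, so the values are descriptive. Among the members, Cd79a, Cd79b and Ms4a1 formed the closest trio, at 0.86 to 0.92. Cd79a to Cr2 went from 0.76 to 0.28 without Eµ-PRMT5 mouse 4, and Cr2 to Cd22 from 0.36 to 0.78. Among 9924 genes with a mean of at least 10 CPM, the patterns most like Cd79a were Ss18l1 (0.98) and Cacna1e (0.97), and those most like Cd79b were Syn3 (0.96) and Rmnd1 (0.95). The nearest to Cr2 were Il27ra and Zfp831 (0.97 each), and to Cd81 Itsn2 (0.98) and Usp11 (0.97). Cd22 was nearest to Jun (0.97), which ranged from 38.4 to 895 CPM, and to Polr3b (0.94). Cd72 was nearest to Fam178a (0.96) and Mnt (0.92), Fcgr2b to Zfp160 (0.95) and Nudt3 (0.94), Cd5 to Gmip (0.95) and Snx13 (0.94), and Ms4a1 to Ensa and Sp100 (0.95 each).

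Genes around the receptor were taken from wider lists. Of 31 other coreceptors and B cell surface receptors, 30 were tested and 0 were called in any comparison by edgeR. At an unadjusted p under 0.05 from edgeR, Fcer2a (CD23, the low-affinity IgE receptor) was lower in double transgenic than in Eµ-PRMT5 mice. Cd300a, an inhibitory receptor, was higher at the same threshold. Their log2 fold changes were -2.76 (standard error 0.93) and 1.48 (0.61), with the same adjusted p of 0.999994 from edgeR. Both genes overlapped between the groups. Cd300a ranged from 29.5 to 228 CPM in double transgenic and from 26.6 to 53.5 CPM in Eµ-PRMT5 mice. Fcer2a ranged from 0.858 to 4.92 CPM and from 1.73 to 38.5 CPM in these groups. Against the Eµ-TCL1 mouse, the genes of this list with the largest estimates were Ifitm3 and Ifitm1, at 2.79 each for Eµ-PRMT5 mice and at 3.09 and 2.54 for double transgenic mice, with edgeR's adjusted p between 0.713 and 0.838.

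Of 40 genes of proximal BCR signalling, 39 were tested and 0 were called. The largest estimates of double transgenic over Eµ-PRMT5 mice included the adaptor Dok2 at -1.11 (standard error 0.58). For Eµ-PRMT5 mice against the Eµ-TCL1 mouse they were the kinase Fyn at 1.60 (1.14) and Themis2, a B cell signalling scaffold, at 1.56 (0.65). Ptpn6, which encodes SHP-1, a phosphatase that ITIMs recruit, measured 267 CPM in the single Eµ-TCL1 mouse. It measured 485 to 1074 CPM in Eµ-PRMT5 and 886 to 1784 CPM in double transgenic mice. Themis2 measured 72.2 CPM against 117 to 298 and 272 to 447 CPM. The Eµ-TCL1 mouse lay below every other mouse for Ptpn6 and Themis2. Their log2 fold changes were 2.25 and 2.23 for double transgenic mice, with an adjusted p of 0.778 each from edgeR. Other phosphatase genes of this list did not all go this way. Inpp5d measured 724 CPM in the Eµ-TCL1 mouse, against means of 389 CPM in Eµ-PRMT5 and 506 CPM in double transgenic mice. Ptpn11 measured 73.5 CPM against means of 88.3 and 138 CPM. Against the Eµ-TCL1 mouse this list had medians of 0.34 and 0.55 for the 2 replicated groups, beside 0.04 and -0.07 for all genes.

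Of the 19 Ms4a family symbols in the table, 10 had a value in all libraries and were tested, and 0 were called. The largest estimates of double transgenic over Eµ-PRMT5 mice were those of Ms4a4b, known from T cells, at -2.81 (standard error 0.99) and Ms4a4a at -1.17 (0.88). Against the Eµ-TCL1 mouse they were Ms4a4b at 3.52 (1.71) and Ms4a3, a gene of myeloid precursors, at 3.09 (1.85) for Eµ-PRMT5 mice, and Ms4a3 at 3.55 (1.92) and Ms4a4c at 2.37 (1.02) for double transgenic mice. The neutrophil list was lower in the Eµ-TCL1 mouse, with a sum of 688 CPM, than in 6 of the other 7 mice, and the part of T and myeloid cells in the Ms4a values was not tested. None of the 12 immunoglobulin constant gene symbols was among the rows used, so the heavy and light chains of the receptor were not analysed here.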

How the data were processed

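B cells were isolated from spleens of diseased mice with a negative-selection pan-B kit. The study's methods give a low-input protocol (SMARTer v4 preamplification, Nextera XT libraries, CLEAR filtering), whereas the labels give a stranded mRNA kit, so the kit and the use of strand are uncertain. The authors deposited raw gene counts, with Subread, featureCounts, DESeq2 1.20.0 and GRCm38 named in the submitters' processing notes; the aligner and annotation of these libraries are not given in the sources used here. The table held 36919 cells without a value, none among the members. Their meaning is not stated, so the fit kept 14072 symbols that had a value in each of the 8 libraries, holding 95.2% to 99.5% of the counts of a library. In 26 rows the symbol had been turned into a date.

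Groups were taken from the genotype labels. Counts were filtered with filterByExpr and fitted with edgeR 4.0.16 (R 4.3.3) in 1 quasi-likelihood model over the 3 groups, with TMM scaling and Benjamini-Hochberg adjustment over 13173 genes, and a gene was called at an adjusted p under 0.05. Standard errors were derived from the F statistics, and the common biological coefficient of variation was 0.483. DESeq2 1.42.0 was an alternative, as were other scalings, filters, a replicate block and leaving out each library. Log2 CPM used a prior count of 2. Depth was 3356297 to 10252426 counts, and counting intervals cover counting error only. The labels do not say that samples with 1 replicate number share a litter or day, and each was taken as a separate mouse. Gene positions and sequences came from GENCODE vM21. The ITAM pattern began with aspartate or glutamate 3 residues before a tyrosine, with leucine or isoleucine 3 residues after that tyrosine. The tyrosine and its leucine or isoleucine were repeated after 6 to 8 residues. The ITIM pattern was isoleucine, valine, leucine or serine, any residue, tyrosine, any 2 residues, then isoleucine, valine or leucine. Scripts were tested on simulated data.

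The members and lists were chosen with earlier results of these data known. All 9 members were named. Of the other lists, Ptprc and the 2 genes with the largest absolute log2 fold change at a mean of at least 10 CPM were named in each comparison, as were the 2 genes most like each member. Some genes that this rule names are not reported here. Genes named beyond this rule (Ebf1, Pax5, Spib, Cd3e, Fcgr3, Tesk1, Prmt5, Inpp5d, Ptpn11 and the marker genes) were checks or were chosen after their values were seen.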

Additional observations from a re-analysis of the deposited data

Results flagged for a closer look

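Of 30 values tested for a far-off mouse among the 4 Eµ-PRMT5 mice, 4 were flagged by Dixon's test, where chance alone flags about 1.5. The Cd79a to Cd79b ratio was 0.718 in Eµ-PRMT5 mouse 4, against 1.39 to 1.45 in the other 3. The Cd72 to Cd79b ratio was 1.05 in Eµ-PRMT5 mouse 2, against 0.218 to 0.248 in the others. The sum of the follicular dendritic and stromal markers was 47.2 CPM in Eµ-PRMT5 mouse 3, and the erythroid sum was 694 CPM in Eµ-PRMT5 mouse 4. The labels of Eµ-PRMT5 mice 3 and 4 carry animal numbers that the study also uses for its histology. Under the number of mouse 3 it describes anaplastic large lymphocytes with histiocytes. Under that of mouse 4 it describes sheets of small lymphocytes. Whether these are the same animals is not stated, and no cause of the flagged values was tested.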

How the results depend on the processing

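No member was called under any setting. edgeR called 0 genes in the 3 comparisons, at unadjusted p under 0.05 for 126 higher and 160 lower, 258 and 635, and 231 and 571 genes. DESeq2 called 3 higher and 1 lower (Eµ-PRMT5/TCL1 against Eµ-PRMT5), 4 and 14 (Eµ-PRMT5 against Eµ-TCL1) and 9 and 7 (Eµ-PRMT5/TCL1 against Eµ-TCL1). With the replicate number as a block, edgeR called 1 gene lower in each of the last 2 comparisons. The labels do not say whether same-numbered mice share a litter or day. The deviations of same-numbered mice correlated at -0.02, 0.15 and 0.16. Eµ-PRMT5 mice 2 and 3 correlated best with the double transgenic mouse of their number, and Eµ-PRMT5 mouse 1 did not. With library size only, 1 member, not 3, was lowest in the Eµ-TCL1 mouse. The direction of 11 member estimates turned, all of them uncalled, and the cause was not tested. Eµ-PRMT5/TCL1 against Eµ-PRMT5 gave 0.030 for Fcgr2b with upper-quartile scaling. Eµ-PRMT5 against Eµ-TCL1 gave 0.14 for Cd79b with missing values as 0 and 0.014 with the replicate block, -0.18 for Cr2 with the block, and -0.12 and -0.20 for Cd81 with upper-quartile scaling and library size only. Eµ-PRMT5/TCL1 against Eµ-TCL1 gave 0.082 for Cd79a and 0.067 for Cd81 with missing values as 0, -0.012 and -0.15 for Cd79b with upper-quartile scaling and library size only, and -1.20 for Cr2 with the block. Leaving out 1 library gave -0.045 to 0.40 for Cd79b, -1.81 to 0.64 for Cr2, -0.60 to 0.039 for Cd81, -0.73 to 0.64 for Cd22, -0.29 to 0.49 for Fcgr2b and -0.028 to 1.27 for Ms4a1 in Eµ-PRMT5/TCL1 against Eµ-PRMT5. It gave -0.26 to 0.078 for Cd79b, -0.20 to 1.92 for Cr2 and -0.14 to 0.29 for Cd81 in Eµ-PRMT5 against Eµ-TCL1, and -0.14 to 0.28, -0.31 to 0.82 and -0.56 to 0.017 in Eµ-PRMT5/TCL1 against Eµ-TCL1. The single Eµ-TCL1 library could not be left out. The other 202 values under other settings and 174 with a library left out kept their direction and their side of the threshold, or, for values with no test, stayed within the spread.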
